A study of Homo sapiens with 6 samples.

Results

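The genes described are the receptors for the chemokine CXCL12, CXCR4 and ACKR3, and proteins that switch receptors off. The latter are the kinases GRK2, GRK3, GRK5 and GRK6, the arrestins ARRB1 and ARRB2, and the ubiquitin ligase ITCH. CD74, a receptor for the cytokine MIF, was listed with them. All 10 genes were taken by gene symbol from the platform annotation, with the brightest probe set kept for a symbol. Of the 10 genes, 9 had a named probe set, 1 each, out of 17687 named genes on the array, and no probe set was named here for ARRB2. The cells were Jurkat, an established line from a human T-cell acute lymphoblastic leukaemia (T-ALL), so every array comes from the same line. CXCL12 cells (n = 3 arrays) were kept without serum for 90 min and given CXCL12 at 100 ng/ml for 15 min. Untreated cells (n = 3 arrays) had the same 90 min without serum and no chemokine. The titles speak of biological replicates without saying whether separate cultures were used, so the p-values speak only of the spread among these arrays, part of which may be technical.

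CXCR4 is the G protein-coupled receptor through which CXCL12 attracts T cells and leukaemic T cells. Once CXCL12 is bound, G protein-coupled receptor kinases (GRKs) phosphorylate the receptor's tail, arrestins bind the phosphorylated tail and uncouple it from G proteins, and the receptor is taken up through clathrin-coated pits. ITCH, also called AIP4, attaches ubiquitin to CXCR4, a mark that sends the receptor to lysosomes. ACKR3 binds CXCL12 without activating G proteins and works through arrestins as a scavenger, and CD74 is a receptor for the cytokine MIF, which also binds CXCR4. All of these steps act on protein that already exists, and arrays measure only the messenger RNA.

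After 15 min of CXCL12, 0 of the 9 measured genes passed the test at an adjusted p of 0.05 (limma with Benjamini-Hochberg adjustment over 16086 probe sets), and 1 of 9, CXCR4, had an unadjusted p under 0.05. Over all tested probe sets, 0.0124% passed the adjusted threshold and 4.73% had an unadjusted p under 0.05. Probe sets with a mean log2 signal below 4.44 had been left out as dim, and all 9 genes lay above that limit. The log2 changes, CXCL12 minus untreated, ran from -0.37 for CXCR4 to 0.10 for GRK6, with 6 negative, 3 positive and a median of -0.11. Over all tested probe sets the median change was 0.0023, with 7938 negative and 8148 positive. For 8 of the 9 genes, all but CXCR4, the whole 95% interval was inside a 1.5-fold change in both directions, against 89.9% of all tested probe sets.

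**Figure D1:**
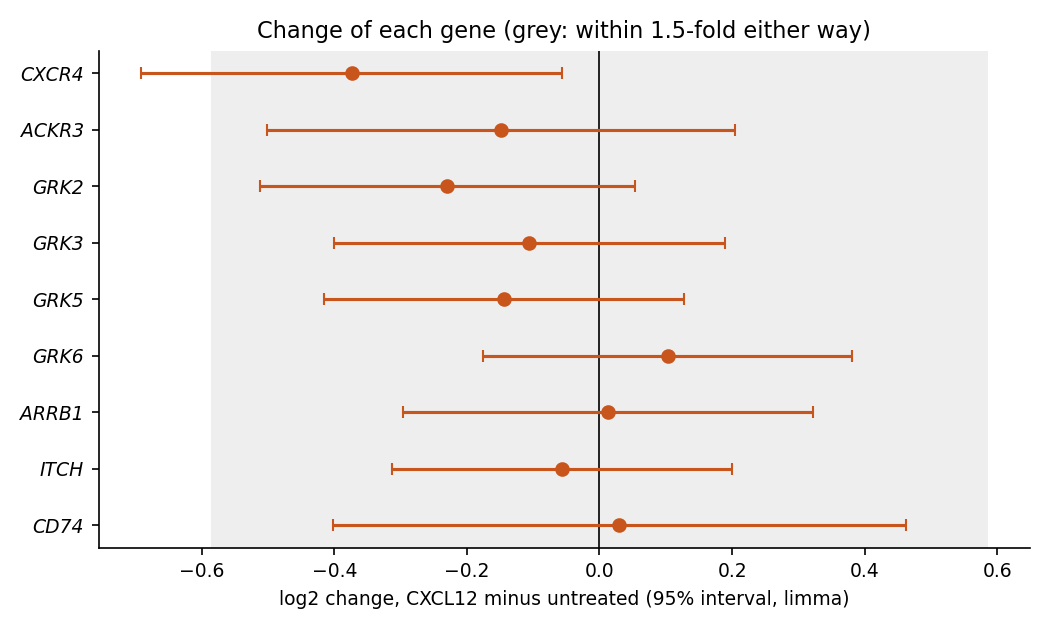
Log2 change (CXCL12 minus untreated, n = 3 arrays each) of the 9 measured genes, with limma's 95% interval as bars and the range of a 1.5-fold change either way in grey. The interval of CXCR4, from -0.69 to -0.06, is the only one of the 9 that leaves out 0, and also the only one that reaches beyond the grey range.

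Elsewhere on the arrays, 2 probe sets passed the adjusted threshold, both higher with CXCL12. EGR1, an immediate early transcription factor, had log2 signals of 8.13, 7.80 and 7.98 in the CXCL12 arrays, against 5.94, 5.91 and 6.12 in the untreated arrays, here and throughout in the order of replicates 1, 2 and 3 (change 1.98, limma adjusted p = 4.52e-05). EGR1 rose, as did CD69, an early activation receptor of lymphocytes (change 1.34, limma adjusted p = 0.0394). CD69 no longer passed when CXCL12 replicate 1, 2 or 3 or untreated replicate 2 was left out, with a limma adjusted p of 0.342, 0.0687, 0.532 and 0.0674. Array medians lay between 6.18 and 6.22. Untreated replicate 1 correlated least with the other arrays, at a mean of 0.982 over the tested probe sets, against 0.987 to 0.989 for the rest. All 12 listed T cell markers, CD3D, CD3E and LCK among them, were above the dim limit, with means from 8.20 to 11.4 in either group. Of 31 listed markers of B cells, myeloid, erythroid, fibroblast and epithelial cells, 20 were tested and 0 passed (1 had an unadjusted limma p under 0.05), with changes from -0.30 to 0.32. A further 7 were left out as dim and 4 had no named probe set, so the 20 lay above the dim limit by definition. The highest of the 20 was CD79A, with means of 7.93 in CXCL12 and 7.92 in untreated arrays. Lying above the dim limit therefore does not set the T cell markers apart from these 20. In both groups, though, the lowest T cell marker mean, 8.20, was above that of CD79A.

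CXCR4 had log2 signals of 10.43, 10.75 and 10.48 in the CXCL12 arrays, against 11.17, 10.88 and 10.73 in the untreated arrays. Replicates 1 and 3 of CXCL12 lay below every untreated array, and CXCL12 replicate 2 lay just above untreated replicate 3, so the groups overlapped. The signal with CXCL12 was 0.772 times the untreated one, a log2 change of -0.37 (SE 0.15, 95% interval -0.69 to -0.06) with an unadjusted p of 0.0247 and a limma adjusted p of 0.996, so CXCR4 did not pass. By unadjusted p it stood at place 392 among 16086 probe sets. With single arrays left out the change spanned -0.47 to -0.25. The unadjusted limma p was 0.0964 without untreated replicate 1, 0.0909 without CXCL12 replicate 1 and 0.0768 without CXCL12 replicate 3. It stayed under 0.05 when any other single array was left out. In a bulk sample, fewer cells with a transcript and less of it per cell cannot be told apart.

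The other CXCL12 receptor, ACKR3, sat near the bottom of the tested range. Its log2 signals were 4.89, 4.67 and 4.67 in the CXCL12 arrays, against 5.18, 4.53 and 4.96 in the untreated arrays. Detection calls were not examined, so whether this signal exceeds background is not known. The CXCL12 arrays all lay inside the untreated range. The change was -0.15 (95% interval -0.50 to 0.20, limma adjusted p = 0.996). Single untreated arrays moved it most: leaving out untreated replicate 1 gave -0.0028, and leaving out untreated replicate 2 gave -0.33.

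GRK2 was the 1 gene of the 9 whose groups did not overlap. Its log2 signals were 8.50, 8.58 and 8.41 in the CXCL12 arrays, against 8.60, 8.93 and 8.65 in the untreated arrays. The gap between the groups was narrow, with CXCL12 replicate 2 next to untreated replicate 1. The change was -0.23 (SE 0.13, 95% interval -0.51 to 0.05, limma adjusted p = 0.996), and it was -0.13 without untreated replicate 2, the highest array. Among all tested probe sets, 9.54% had groups that did not overlap, 4.48% with CXCL12 lower, so 1 of 9 is close to the background. GRK2 is the kinase that G protein beta-gamma subunits bring to the membrane, and GRK3 is its closest relative.

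GRK3 had log2 signals of 9.04, 8.75 and 9.13 in the CXCL12 arrays, against 8.95, 9.10 and 9.19 in the untreated arrays. CXCL12 replicate 2 alone lay below the untreated arrays. The change was -0.11 (95% interval -0.40 to 0.19), and 0.0041 without CXCL12 replicate 2. Low GRK3 has been reported in people with WHIM syndrome, an immunodeficiency in which CXCR4 is not turned off properly.

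GRK5 and GRK6 form the other kinase subfamily, which is held at the membrane without beta-gamma subunits. GRK5 had log2 signals of 6.28, 6.35 and 6.26 in the CXCL12 arrays, against 6.50, 6.56 and 6.26 in the untreated arrays, where untreated replicate 3 stood at the level of the CXCL12 arrays. GRK6, a GRK that is abundant in lymphocytes, had 9.39, 9.33 and 9.19 in the CXCL12 arrays, against 9.06, 9.38 and 9.16 in the untreated arrays. It was the only kinase of the 4 with a positive change, with arrays that overlapped. The changes were -0.14 for GRK5 (95% interval -0.42 to 0.13) and 0.10 for GRK6 (95% interval -0.18 to 0.38), both with a limma adjusted p of 0.996. For GRK6, leaving out untreated replicate 1 gave 0.04 and leaving out untreated replicate 2 gave 0.19, and for GRK5, leaving out untreated replicate 2 gave -0.08 and leaving out untreated replicate 3 gave -0.24. Whether the kinases differ from each other in their change was not tested.

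ARRB1, which encodes beta-arrestin 1, had log2 signals of 7.19, 7.71 and 7.53 in the CXCL12 arrays, against 7.42, 7.50 and 7.48 in the untreated arrays. The untreated arrays were close together, and the CXCL12 arrays lay on both sides of them. The SD was 0.26 in CXCL12 and 0.04 in untreated arrays (n = 3 each), a difference in spread that was not tested. The change was 0.01 (95% interval -0.30 to 0.32, limma adjusted p = 0.999).

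ITCH was the steadiest of the 9 genes. It had log2 signals of 8.13, 8.10 and 7.96 in the CXCL12 arrays, against 8.08, 8.08 and 8.20 in the untreated arrays. Its whole range over the 6 arrays was 0.24, and 9.14% of tested probe sets had a smaller SD within the groups. The change was -0.06 (95% interval -0.31 to 0.20, limma adjusted p = 0.996), or 0.805 to 1.15 times the untreated signal, and it was -0.0045 without CXCL12 replicate 3.

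CD74 was the least steady. Its log2 signals were 5.15, 5.37 and 5.49 in the CXCL12 arrays, against 4.78, 5.67 and 5.46 in the untreated arrays. Its range over the 6 arrays was 0.89, both its ends were untreated arrays, and 97.0% of tested probe sets had a smaller SD within the groups. The change was 0.03 (95% interval -0.40 to 0.46, limma adjusted p = 0.996), or -0.23 without untreated replicate 1 and 0.21 without untreated replicate 2. CD74, the invariant chain of MHC class II, is made together with class II molecules by antigen-presenting cells. Of the class II genes listed, HLA-DRA and HLA-DPA1 had means below the dim limit and were left out. HLA-DRA was below it on all 6 arrays and HLA-DPA1 on 3 of 6. HLA-DRB1, HLA-DPB1, HLA-DQA1, HLA-DQB1 and HLA-DMA were tested, with means over the 6 arrays from 4.46 for HLA-DPB1 to 5.98 for HLA-DMA. Of the tested ones, HLA-DPB1 was below the limit on 3 of 6 arrays and HLA-DQA1 on 2 of 6.

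**Figure D2:**
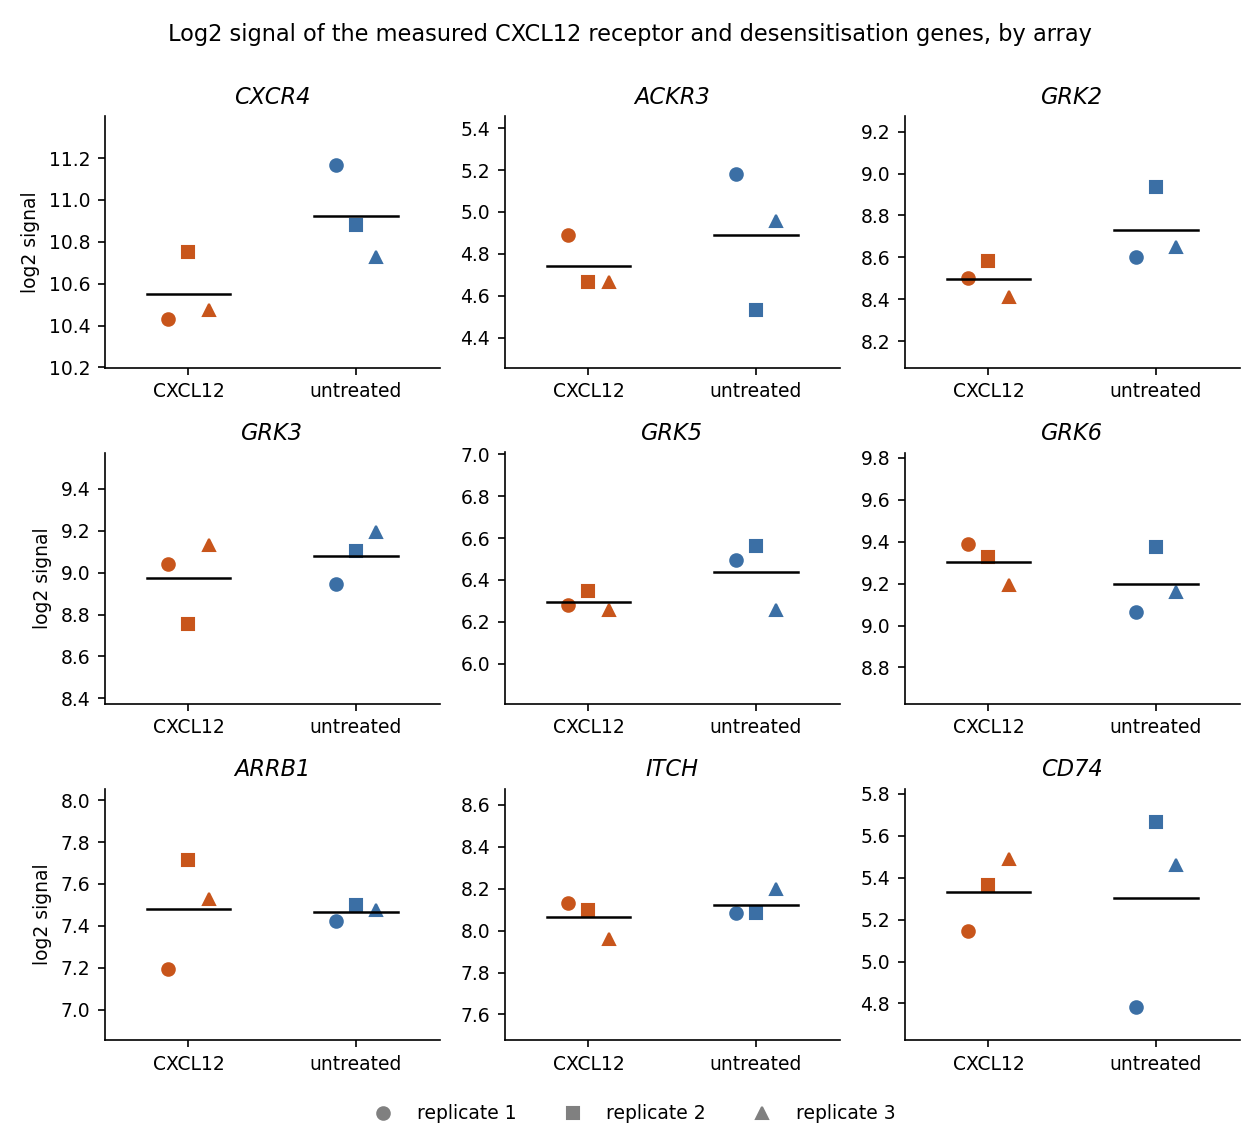
Log2 signal of the 9 measured genes on each array, CXCL12 left and untreated right, with a symbol for each replicate and a bar at the group mean; all panels span the same height of the log2 scale. Only for GRK2 do the 3 CXCL12 arrays all lie below the 3 untreated arrays, and CD74 and CXCR4 are spread the most, with ranges of 0.89 and 0.74 over the 6 arrays.

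No array held the 9 genes high or low as a block. The number of genes above their own mean over the arrays was 4, 5 and 3 of 9 in the CXCL12 arrays, against 3, 7 and 6 of 9 in the untreated arrays. Untreated replicate 1 gave the highest value for CXCR4 and ACKR3 and the lowest for GRK6 and CD74.

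**Figure D3:**
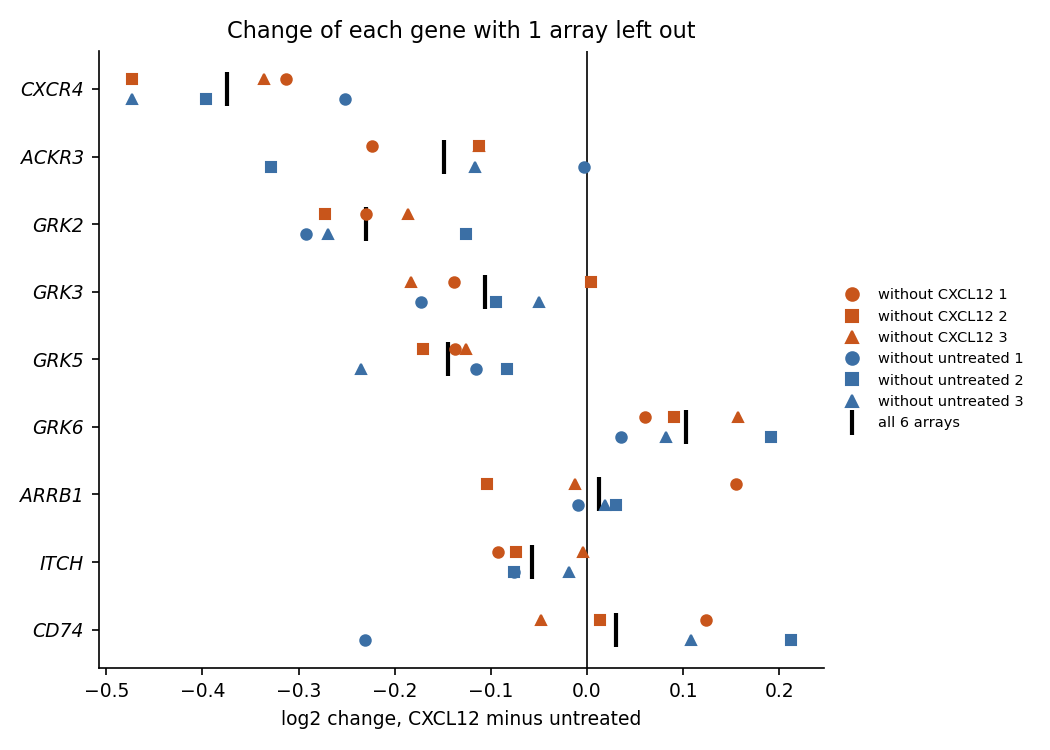
Log2 change (CXCL12 minus untreated) of the 9 genes with each array left out in turn (coloured symbols) and with all 6 arrays (black bar). CXCR4, ACKR3, GRK2, GRK5 and ITCH stay below 0 and GRK6 above 0 in the 6 fits, while GRK3, ARRB1 and CD74 fall on both sides of 0.

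The stretches before the transcription start of CXCR4 and GRK2 are shown because these were the genes with the smallest unadjusted p among the 9. Sequences are those of RefSeq on build GRCh38.p14, 250 bases up to the start farthest upstream, read 5′ to 3′ on the gene's strand. Capitals mark exact matches on either strand to the NRF1 motif (GCGCA followed at once by its reverse complement), the TATA box TATAAA and the GC box GGGCGG. CXCR4 lies at chr2:136118150-136118399 on the minus strand and GRK2 at chr11:67266223-67266472 on the plus strand.
CXCR4: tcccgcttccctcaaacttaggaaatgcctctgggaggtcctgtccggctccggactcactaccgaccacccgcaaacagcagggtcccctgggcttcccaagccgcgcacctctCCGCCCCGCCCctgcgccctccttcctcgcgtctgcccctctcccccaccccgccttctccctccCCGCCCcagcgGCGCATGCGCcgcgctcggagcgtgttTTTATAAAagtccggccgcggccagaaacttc
GRK2: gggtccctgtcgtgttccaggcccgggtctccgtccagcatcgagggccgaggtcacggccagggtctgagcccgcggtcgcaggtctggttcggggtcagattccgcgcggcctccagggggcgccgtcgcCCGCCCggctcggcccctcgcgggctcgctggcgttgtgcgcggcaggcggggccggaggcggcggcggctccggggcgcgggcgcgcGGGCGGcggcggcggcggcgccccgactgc

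In CXCR4 the NRF1 motif lay 59 to 50 bases before the start, and TATAAA 30 to 25 bases before it, overlapped by a match on the opposite strand. NRF1 is a factor known to activate the CXCR4 gene. There were 3 GC boxes in the CXCR4 stretch, 2 of them sharing 1 base, and 2 in that of GRK2, which held neither other motif. For the other genes, windows of 300 bases (250 before and 50 after the start) were searched, and 7 of the 10 genes had a window in the table, CXCR4 with 3. The NRF1 motif and the TATA box were each in 1 of the 9 windows of these genes, a CXCR4 window. Of 35116 windows of all genes, 1.24% and 11.5% held them. NRF1 was known beforehand to activate CXCR4, so its match there is not an independent result. The GC box was in 8 of the 9 windows, against 45.0% of all windows, and each of the 7 genes had at least 1 such window. The EGR1 motif GCGTGGGCG, searched because EGR1 rose, was in 0 of the 9 windows, against 0.795% of all windows. With so rare a motif and so few windows, finding no match is uninformative. GRK2 had 82.3% G and C in its window, above 98.9% of all windows, and CD74 54.3%, above 39.5%. The 3 CXCR4 windows had 52.0%, 53.7% and 66.7%. For 6 of the 7 genes the richest window was above 58.7%, the median of all windows. The GC box is made of G and C only. Whether these genes hold it more often than windows equally rich in G and C was not tested. A match describes the letters only, and no binding was measured.

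The 5 genes whose values over the arrays were most like those of CXCR4 were SLC25A10, LTBP4, RORA, PNRC1 and LAMP3. Likeness was the root-mean-square difference over 6 arrays between values centred on each gene's own mean. It ran from 0.038 for SLC25A10, a mitochondrial carrier, to 0.056 for LAMP3, a lysosomal membrane protein, with a median of 0.28 over 13454 genes. With so many genes and 6 arrays, close matches arise in any case. A pattern and a change like those of CXCR4 follow from the way the 5 genes were chosen. They stood furthest from their means in untreated replicate 1, 0.35 to 0.45 above, where CXCR4 was 0.43 above its own. They were also low in CXCL12 replicate 1, at -0.37 to -0.25 against -0.31 for CXCR4, and in CXCL12 replicate 3, at -0.26 to -0.16 against -0.26 for CXCR4. Their changes ran from -0.42 for SLC25A10 to -0.31 for LAMP3, each with a limma adjusted p of 0.996. Without untreated replicate 1 the changes of PNRC1, a nuclear receptor coactivator, and LAMP3 were -0.17 and -0.16, against -0.32 and -0.31 with it.

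**Figure D4:**
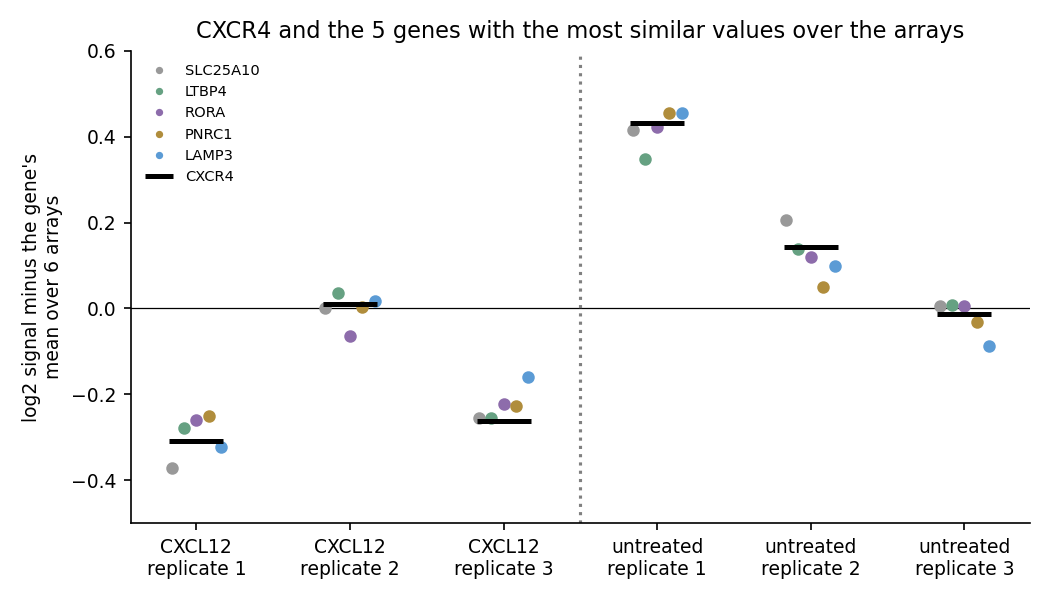
Log2 signal on each array minus the gene's mean over the 6 arrays, for CXCR4 (black bars) and the 5 genes most like it (points), with CXCL12 arrays left and untreated arrays right of the dotted line. All 6 genes are highest in untreated replicate 1, at 0.35 to 0.45 above their means. The 5 genes were chosen by these same values.

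The remaining genes of the receptor's life cycle were read from 7 lists, and 0 of their genes passed over all probe sets in either direction. For comparison, 4.73% of all tested probe sets had an unadjusted limma p under 0.05, and 9.54% had groups that did not overlap. Of the other GRK and arrestin genes, 5 of 11 were tested, all of them arrestin-fold genes outside the classical arrestins (4 positive, 1 negative, median 0.12, none with an unadjusted limma p under 0.05). GRK4, GRK7 and the visual arrestins SAG and ARR3 were left out as dim, and no probe set was named here for GRK1. ARRDC2, ARRDC3 and ARRDC4, alpha-arrestins that link ubiquitin ligases to membrane proteins, had changes of 0.20, 0.11 and 0.12. Leaving out untreated replicate 1 gave 0.017 for ARRDC2, and leaving out untreated replicate 2 gave 0.038 for ARRDC3 and 0.040 for ARRDC4.

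The list of ligands of the receptors, which also held the protease DPP4 (left out as dim), had 7 of 9 genes tested. Of these, 2 were positive and 5 negative, with a median of -0.07. ADM, which encodes adrenomedullin, a peptide that ACKR3 scavenges, had log2 signals of 6.59, 6.55 and 6.85 in the CXCL12 arrays, against 5.62, 6.19 and 5.995 in the untreated arrays. These arrays did not overlap (1 of the 7 genes tested, against 9.54% of all tested probe sets). ADM was also the 1 ligand with an unadjusted p under 0.05 (change 0.73, 95% interval 0.39 to 1.07, limma adjusted p = 0.655). DDT, a relative of MIF that binds CD74, had a change of 0.17, with the sign turned without untreated replicate 1 (-0.05). CXCL14, reported to bind CXCR4, had -0.11 at group means of 4.54 in CXCL12 and 4.65 in untreated arrays, not far above the dim limit.

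Genes of uptake through clathrin-coated pits and of endosomes were all tested. Of the 20, 15 had a negative change and 5 a positive one, with a median of -0.08. Only 1 had an unadjusted limma p under 0.05. That was DNM3, one of the dynamins that pinch off vesicles, with a change of -0.37 (95% interval -0.64 to -0.10, limma adjusted p = 0.996). Its arrays did not overlap, as for 2 of the 20 genes in all, against 9.54% of all tested probe sets. AP2A2 and AP2M1, subunits of the AP-2 adaptor that recruits receptors to clathrin, had -0.20 and -0.16, with -0.12 for AP2A2 without CXCL12 replicate 3 and -0.10 for AP2M1 without CXCL12 replicate 1.

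Ubiquitin ligases and sorting genes were also all tested, with 15 of 23 negative, 8 positive and a median of -0.05, and 2 had an unadjusted limma p under 0.05, in opposite directions. NEDD4L, a ligase of the same family as ITCH, had log2 signals of 5.59, 5.74 and 5.21 in the CXCL12 arrays, against 6.12, 6.14 and 5.91 in the untreated arrays (change -0.54, 95% interval -0.87 to -0.22, limma adjusted p = 0.927). NDFIP2, a membrane adaptor that recruits and activates ligases of this family, ITCH included, had 6.92, 6.42 and 7.22 in the CXCL12 arrays, against 6.38, 6.12 and 6.38 in the untreated arrays (change 0.56, 95% interval 0.17 to 0.95, limma adjusted p = 0.996). For both genes the groups did not overlap, as for 3 of the 23 in all, against 9.54% of all tested probe sets. The change of NDFIP2 was 0.38 without CXCL12 replicate 3 and 0.78 without CXCL12 replicate 2. DTX3L, a ligase that restrains ITCH at the endosome, had -0.20.

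Protein kinase C and PIM kinases, which can also phosphorylate CXCR4, were 5 positive and 5 negative of 10 tested, with a median of -0.0027 and none with an unadjusted limma p under 0.05. PRKCH, PIM2 and PRKCB had changes of -0.18, -0.14 and -0.12, and with single arrays left out they spanned -0.29 to -0.12, -0.18 to -0.07 and -0.21 to -0.08. Of the MHC class II genes and partners of CD74, 12 of 16 were tested (5 positive, 7 negative, median -0.01). CD44, the co-receptor through which CD74 signals, had a change of -0.35 (95% interval -0.69 to -0.02, limma adjusted p = 0.996), or -0.21 without untreated replicate 2, and was the 1 gene of the list with an unadjusted p under 0.05. HLA-DQA1 and CIITA, the class II transactivator, had -0.26 and -0.23 at means of 4.40 and 4.63 in CXCL12 and 4.66 and 4.86 in untreated arrays, again near the dim limit. Leaving out CXCL12 replicate 3 gave -0.15 for HLA-DQA1 and -0.015 for CIITA, and leaving out CXCL12 replicate 1 gave -0.42 for CIITA.

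Among transcription factors known to act on the CXCR4 gene, 7 of 8 were tested (2 positive, 5 negative, median -0.04), none with an unadjusted limma p under 0.05, and no probe set was named here for YY1. EPAS1 and HIF1A, which encode the hypoxia-inducible factors HIF-2 alpha and HIF-1 alpha, had changes of 0.26 and -0.30. Leaving out CXCL12 replicate 2 gave -0.49 for HIF1A, and leaving out CXCL12 replicate 3 gave -0.14. KLF2, a factor of T cell trafficking, had 0.17, and 0.03 without untreated replicate 1.

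**Figure D5:**
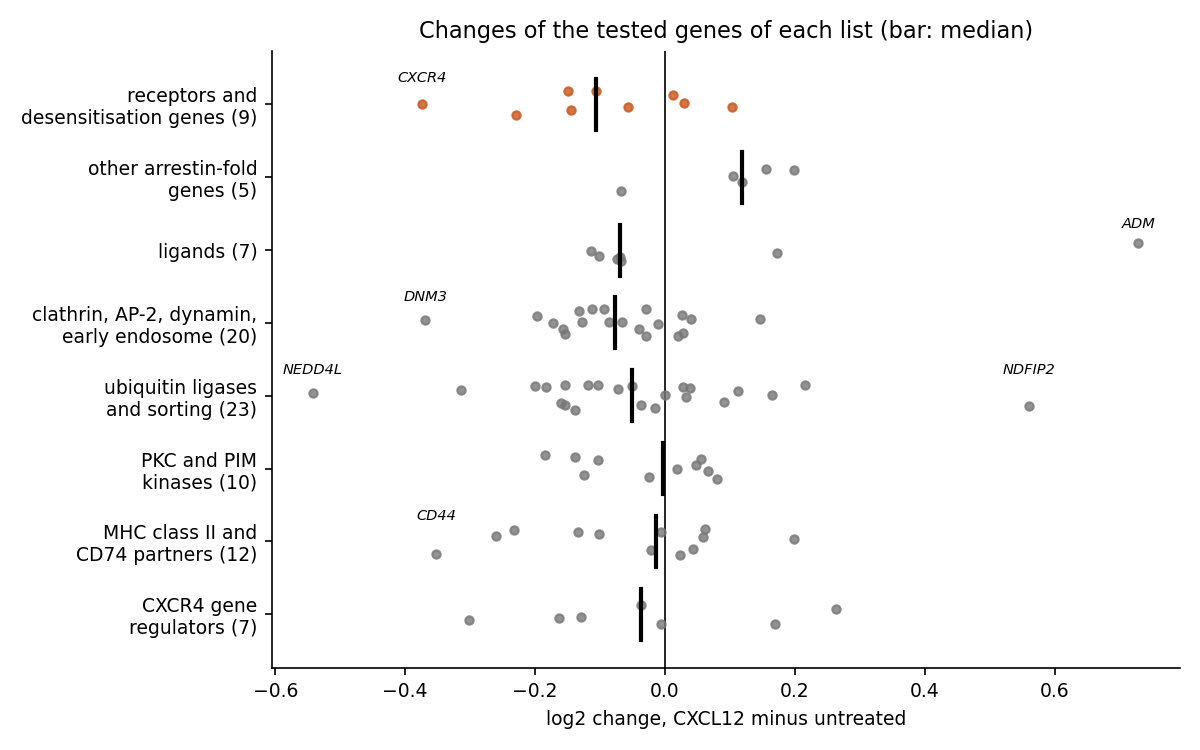
Log2 change (CXCL12 minus untreated, n = 3 arrays each) of every tested gene in the receptor and desensitisation list (orange) and in 7 lists of partner genes (grey), with the number tested in brackets and a bar at each median; heights within a list are spread at random. Names mark genes with an unadjusted limma p under 0.05, none of which passed after adjustment, and the medians lie between -0.11 and 0.12.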

How the data were processed

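RNA was labelled with a whole-transcript kit and hybridised to 6 arrays, per the labels' protocols. The values the authors deposited are on a log2 scale, 1 per probe set and array. The submitters' processing notes list RMA and the Transcriptome Analysis Console. Versions, settings and genome build: not given in the sources used here. Scanner files were not used here, and precision is limited by the number of arrays. The platform annotation gave 17709 of 21448 probe sets a name, each with 1 symbol.

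The deposited values were compared with limma 3.58.1 in R 4.3.3 (lmFit, eBayes, two-sided, no covariates) without further normalization. The dim filter removed the lower 25% of probe sets by mean. The fit was tested on simulated data. Alternatives changed the dim filter, the normalization, the prior variance, the weights of the arrays, the handling of several probe sets per gene, and the arrays included, and added a block for the replicate number. The genes described and the lists were chosen with earlier results of these data known. By rule, the text names the 9 measured genes, EGR1, CD69, the 3 tested genes of each list with the smallest p, any list gene past the threshold, and the 5 genes most like CXCR4. Others were named after their values were seen. One listed ligand gene is not reported here.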

Additional observations from a re-analysis of the deposited data

How the results depend on the processing

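None of the 9 receptor and desensitisation genes passed the limma adjusted threshold in any alternative fit that tested it (0 of 133 values, lowest adjusted p = 0.728). Of these values, 122 kept their direction and 11 did not. Changing the dim filter or the prior, adding the replicate block and averaging probe sets left each change itself as it was. Values from those fits could not turn, yet they count among the 122. ARRB1 turned to -0.0085 with median centring and -0.053 with array weights, and leaving out single arrays gave -0.10 to 0.16. CD74 turned to -0.00095 with quantile normalization again, -0.0031 with cyclic loess and -0.13 with array weights, and leaving out single arrays gave -0.23 to 0.21. In the same way GRK3 spanned -0.18 to 0.0041, DDT -0.048 to 0.32 and CXCL14 -0.20 to 0.0091. Among the 9 genes, 1 had an unadjusted p under 0.05 with all arrays, and 0 to 2 when arrays were left out, ACKR3 joining CXCR4 without untreated replicate 2. Over the whole array, 2 probe sets passed the adjusted threshold; median centring, cyclic loess and keeping dim probe sets each gave 1, the stricter dim filter and the trended robust prior each gave 3 (GPR3 added), array weights gave 4, and leaving out single arrays gave 1 to 2. The stricter dim filter removed ACKR3 and CD74. Averaging probe sets changed nothing for the 9 genes, which had 1 probe set each. The replicate block gave 0 of the 9 genes past the threshold and 2 probe sets; the labels state no pairing, and same-numbered arrays deviated from their group means with correlations of -0.19, -0.11 and 0.11. The causes of these differences were not tested. Changes much smaller than 0.29 (log2), the median half-width of the 95% intervals, could not be resolved with 3 arrays a group.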
